A study of Danio rerio with 6 samples.

Results

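To describe how genes for the protein part of lipoproteins were expressed after embryonic alcohol exposure (EAE), 10 apolipoprotein genes were examined in RNA-Seq counts from whole zebrafish larvae. They were chosen by name, with earlier results of these data known: *apoa1a*, *apoa1b*, *apoa2*, *apoba*, *apobb.1*, *apoc1*, *apoc2*, *apoea*, *apoeb* and *apom*. All 10 were found among 30713 rows with a gene name, and all 10 were among the 21617 genes that passed edgeR's filter on low counts and were tested. The larvae were wild type and of the AB strain, a common laboratory line, and were homogenized whole at 7 dpf. The 3 EAE pools had been kept in 1% EtOH, beginning at 12 hpf and ending at 5 dpf, and the 3 control pools in 0% EtOH. Both groups then stayed without EtOH until collection and received paramecia as food, and the labels' general protocol also names artemia as the usual larval diet. Each pool held 30 larvae. The labels call the larvae siblings and the methods speak of combined clutches, so the p-values measure the spread between these pools, which may in part be technical. Counts on named genes totalled 17264955 to 23638705 per pool. In whole larvae, fewer cells of a type and less RNA per cell cannot be told apart.

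Apolipoproteins carry fat and cholesterol through blood as protein-coated particles. ApoB is the large structural protein that is lipidated in the ER of the producing cell, with the help of the microsomal triglyceride transfer protein, and stays on its particle until the particle is taken up. ApoA-I and apoA-II build high-density lipoproteins, apoC proteins tune lipolysis and uptake, apoE is a ligand for receptors of the LDL receptor family, and apoM carries sphingosine 1-phosphate. Zebrafish carry duplicated copies of several of these genes, named a and b. In larvae they are transcribed in the yolk syncytial layer, the liver and the intestine, and some also in macrophages, including microglia.

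In EAE larvae *apoc1*, *apoa1b*, *apoba* and *apoa2* rose, by 31.4%, 26.2%, 20.4% and 14.9%. The other 6 genes did not pass an adjusted p of 0.05 over all tested genes (edgeR's quasi-likelihood test, n = 3 pools per group). Thus 4 of 10 rose, where 7.22% of all tested genes were called higher and 14.2% were called in either direction. Since the 10 were chosen with earlier results of these data known, these shares are no test of the set. Levels below are TMM-normalized CPM, a gene's reads scaled to the size of its library. Among the 3604 tested genes with a mean of 50 CPM or more in at least 1 group, 13% were called higher. In either direction 26.1% of these 3604 genes were called. None of the 10 fell by this test, against 6.95% of all tested genes called lower. With DESeq2's Wald test and with limma-voom the count of lower genes was also 0, and at an unadjusted p under 0.05 in edgeR 2 were lower, *apoea* and *apobb.1*. The median log2 fold change of the 10 was 0.14, beside 0.000775 over all tested genes, and 0 of the 10 changed by 1.5-fold. In 3 of the 10, *apoa1b*, *apoa2* and *apoc1*, every EAE pool lay above every control pool. This held for 16.0% of all tested genes. The means of 8 genes were higher and those of 2 lower in EAE pools. Since no transcript lengths were used, levels of different genes are not compared.

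**Figure D1:**
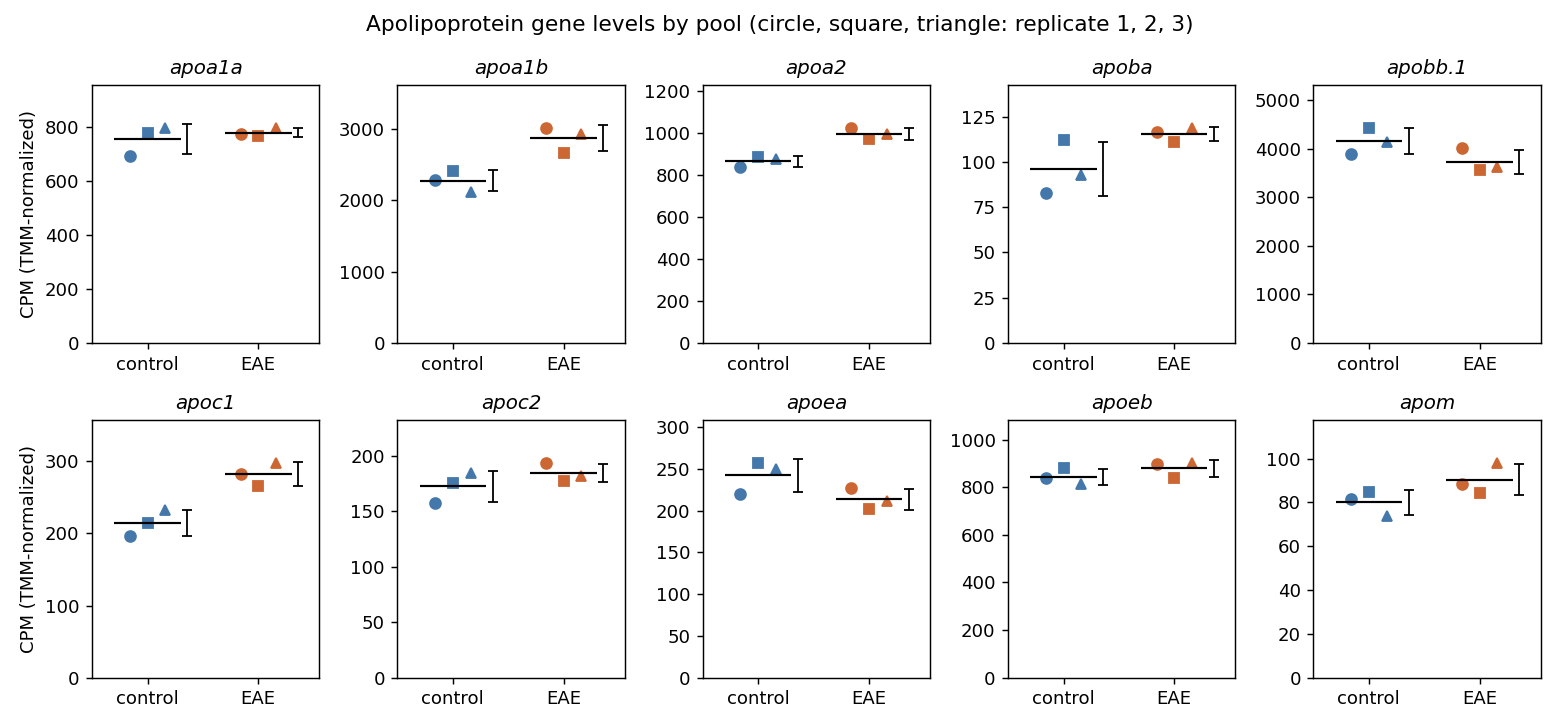
TMM-normalized CPM (y axis, from 0) of each apolipoprotein gene in 3 control and 3 EAE pools of larvae, with horizontal lines for group means and error bars for the SD. The EAE pools of *apoa1b* (2663 to 3012 CPM), *apoa2* and *apoc1* sit above all control pools, whereas those of *apobb.1* and *apoea* lie lower on average and overlap the controls.

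The apoB genes were examined first, since their protein is the scaffold of the triglyceride-rich particles. *apoba* was at 82.9, 112.3 and 92.6 CPM in control pools 1, 2 and 3 and at 116.2, 111.1 and 118.7 CPM in EAE pools 1, 2 and 3. Control pool 2 reached the range of the EAE pools, so the groups overlapped. The mean was 95.9 ± 14.9 CPM in controls and 115.3 ± 3.89 CPM in EAE pools (SD, n = 3). This gave a log2 fold change of 0.27 (SE 0.08, adjusted p = 0.0258, edgeR). *apobb.1* was at 3892, 4432 and 4151 CPM in controls and at 4015, 3566 and 3618 CPM in EAE pools. EAE pools 2 and 3 were below all controls, and EAE pool 1 was above control pool 1. The log2 fold change was -0.16 (SE 0.07, 95% interval -0.30 to -0.01), which did not pass over all genes (adjusted p = 0.139, edgeR). A further locus outside the 10, *apobb.2*, had 53, 40 and 154 counts in controls and 174, 158 and 120 in EAE pools. Control pool 3 was inside the EAE range, and the log2 fold change of 0.75 (SE 0.27) did not pass (adjusted p = 0.0688, edgeR). Without control replicate 3 it was 1.51 and passed (adjusted p = 2.89e-05), as it did without EAE replicate 3 (0.85, adjusted p = 0.0387).

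Of the genes for high-density lipoproteins, both *apoa1b* and *apoa2* rose, and *apoa1a* did not pass. *apoa1b* was at 2282, 2414 and 2120 CPM in controls and at 3012, 2663 and 2924 CPM in EAE pools. The lowest EAE pool stood above the highest control pool, with means of 2272 ± 147 and 2867 ± 182 CPM (SD, n = 3). The log2 fold change was 0.34 (SE 0.07, adjusted p = 0.00291, edgeR). Its copy *apoa1a* was at 693, 777.4 and 793.7 CPM in controls and at 772.3, 766.3 and 795.3 CPM in EAE pools. These ranges overlapped, and the log2 fold change of 0.04 (SE 0.06, 95% interval -0.08 to 0.17) did not pass (adjusted p = 0.674, edgeR). *apoa2*, whose protein is the second main component of these particles in mammals, was at 838.8, 889.4 and 875.5 CPM in controls and at 1026, 971.1 and 994.8 CPM in EAE pools. All EAE pools were above all controls and both groups were tight, with a coefficient of variation of 3.01% in controls and 2.76% in EAE pools. The log2 fold change was 0.20 (SE 0.05, adjusted p = 0.0202, edgeR).

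Among the small exchangeable apoC genes, *apoc1* had the smallest p-value of the 10 and ranked 279 among the 21617 genes. In mammals its protein slows the uptake of triglyceride-rich particles and inhibits cholesteryl ester transfer. It was at 196.8, 214.9 and 232.6 CPM in controls and at 283, 265.4 and 298.1 CPM in EAE pools, with no overlap. The log2 fold change was 0.39 (SE 0.06, 95% interval 0.26 to 0.52, adjusted p = 0.000357, edgeR). *apoc2* encodes the cofactor that lipoprotein lipase needs. It was at 157.4, 175.5 and 184.7 CPM in controls and at 193.9, 177.8 and 182.1 CPM in EAE pools. Control pool 3 was higher than EAE pools 2 and 3, and the log2 fold change of 0.10 (SE 0.06, 95% interval -0.03 to 0.22) did not pass (adjusted p = 0.29, edgeR).

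The apoE copies did not pass in either direction. *apoea* was at 219.9, 257.5 and 249.9 CPM in controls and at 227.5, 201.9 and 211.3 CPM in EAE pools. EAE pools 2 and 3 were below all controls, and EAE pool 1 was above control pool 1. The log2 fold change was -0.18 (SE 0.06, 95% interval -0.31 to -0.05), with an adjusted p of 0.055 (edgeR), close to the threshold. *apoeb*, which is widely used as a marker of microglia in zebrafish, was at 838.3, 879.4 and 812.5 CPM in controls and at 897.9, 839.4 and 903.1 CPM in EAE pools. EAE pool 2 lay among the controls, and the log2 fold change of 0.06 (SE 0.06, 95% interval -0.06 to 0.18) did not pass (adjusted p = 0.513, edgeR). *apom* was at 81.3, 84.8 and 73.7 CPM in controls and at 88.4, 84.4 and 98.1 CPM in EAE pools. EAE pool 2 was just below control pool 2, and the log2 fold change of 0.18 (SE 0.06) had an adjusted p of 0.0674 (edgeR).

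**Figure D2:**
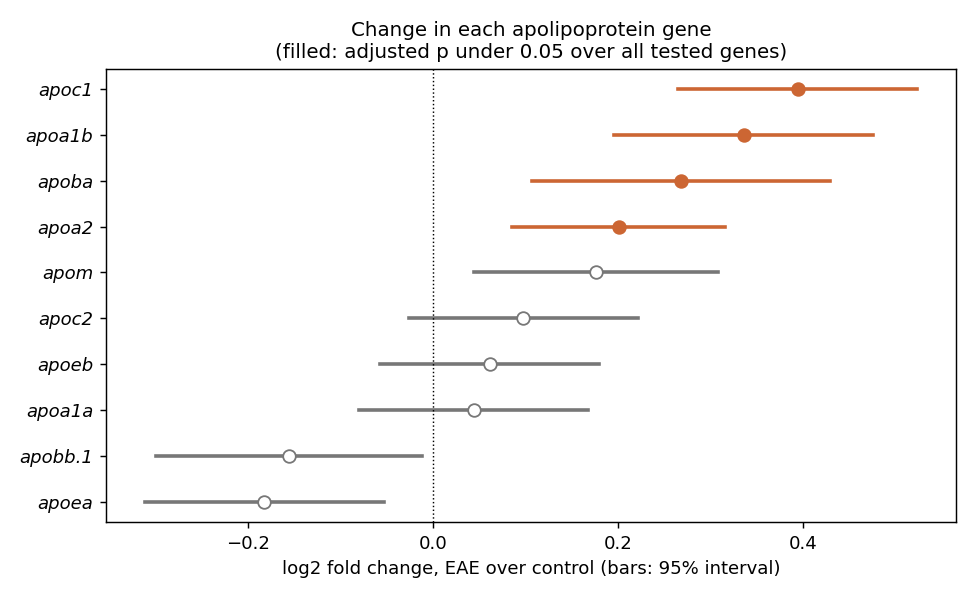
Log2 fold change of EAE over control larvae (x axis) for each apolipoprotein gene, with 95% intervals as bars and filled points for genes past an adjusted p of 0.05 over all tested genes. The 4 filled points run from 0.20 for *apoa2* to 0.39 for *apoc1*, and *apobb.1* and *apoea* are the 2 genes left of 0.

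Each pool was left out in turn to see which of these calls held with fewer pools. Such fits had less power, with 1641 to 2996 of all tested genes called, against 3063 with all pools. The log2 fold change of *apoa2* stayed at 0.18 to 0.22 in them. A lost call alone therefore does not show that it rested on the pool left out. *apoa1b* and *apoc1* passed in each of the 6 fits (highest adjusted p = 0.0269 and 0.0048, edgeR), with log2 fold changes of 0.29 to 0.39 and 0.33 to 0.46. *apoa2* and *apoba* did not pass without control replicate 1 (adjusted p = 0.105 and 0.157), without control replicate 3 (0.0578 and 0.0828) or without EAE replicate 1 (0.0824 and 0.0848). The number of genes called higher was then 2 in each of these 3 fits. Control replicate 1, the lowest pool for 5 of the 10 genes, also moved the value of *apoba*, to 0.17 without it, and 0.39 was reached without control replicate 2. *apoea* passed as lower without control replicate 1 (log2 fold change -0.25, adjusted p = 0.0224) and without EAE replicate 1 (-0.23, adjusted p = 0.0429). *apom* passed as higher without EAE replicate 2 (0.22, adjusted p = 0.0394). The direction of *apoa1a* was not stable, at -0.01 without control replicate 1.

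**Figure D3:**
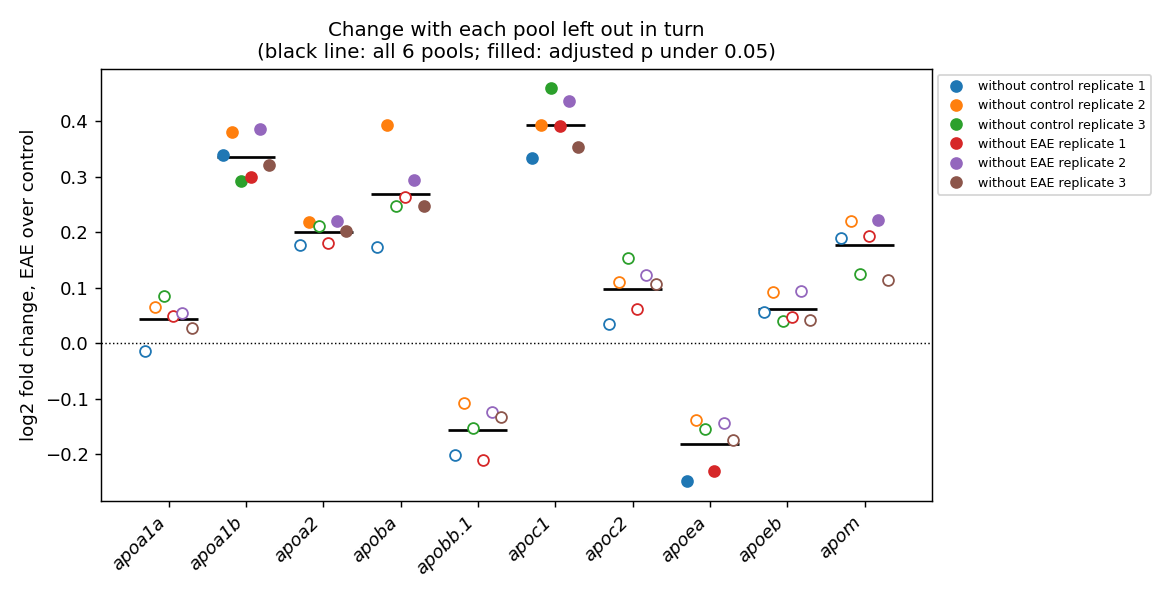
Log2 fold change of each gene (y axis) in the 6 edgeR fits that each left out 1 pool, beside the fit with all pools (black line); filled points passed an adjusted p of 0.05. Points of *apoa1b* and *apoc1* are all filled, those of *apoa2* and *apoba* are filled in 3 of 6 fits, and *apobb.1* and *apoea* stay below 0 in all 6.

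Whether related genes moved by different amounts was asked with the ratio of their reads inside each pool, which does not depend on library size. The *apoba*/*apobb.1* ratio was 0.0213, 0.0253 and 0.0223 in controls and 0.0289, 0.0312 and 0.0328 in EAE pools. Every EAE pool was above every control pool, and the ratio was 1.35 times the control value (log2 difference 0.43). The *apoa1a*/*apoa1b* ratio was 0.304, 0.322 and 0.374 in controls and 0.256, 0.288 and 0.272 in EAE pools, all EAE pools being lower (log2 difference -0.29). The *apoea*/*apoeb* ratio was 0.262, 0.293 and 0.308 in controls and 0.253, 0.240 and 0.234 in EAE pools, again all lower (log2 difference -0.24). The *apoc1*/*apoc2* ratio was 1.25, 1.22 and 1.26 in controls and 1.46, 1.49 and 1.64 in EAE pools (log2 difference 0.30). The *apoa2*/*apoa1b* ratio, which sets the 2 risen high-density lipoprotein genes against each other, was 0.368, 0.368 and 0.413 in controls and 0.341, 0.365 and 0.340 in EAE pools (log2 difference -0.14). For each of the 5 ratios the exact permutation test (two-sided, 3 pools against 3) gave p = 0.1, the smallest it can give, and the p adjusted over the 5 was also 0.1. Over 2622 other pairs of tested genes whose symbols differ only by a final a or b, the ratio did not overlap between groups in 25.2%, and the median absolute log2 difference was 0.14. No such share was taken for pairs like *apoc1*/*apoc2* and *apoa2*/*apoa1b*. The ratios *apoa1a*/*apoa1b* and *apoa2*/*apoa1b* share *apoa1b*, so they are not independent. Each duplicated apolipoprotein pair thus held one copy whose share of the pair's reads was larger in all EAE pools: *apoba*, *apoa1b* and *apoeb*. With each pool left out in turn all 5 log2 differences kept their direction.

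**Figure D4:**
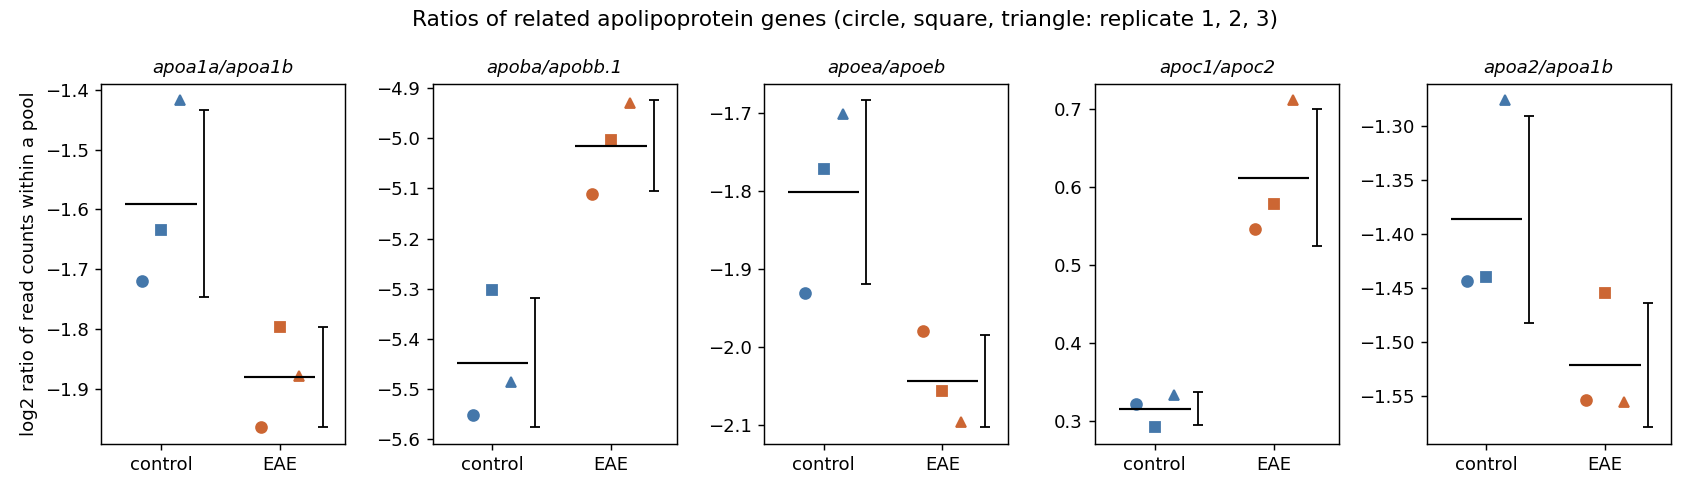
Log2 ratio of the read counts of 2 apolipoprotein genes within a pool (y axis, separate scale per panel) in 3 control and 3 EAE pools, with lines for means and error bars for the SD. The groups do not overlap in any of the 5 panels, and the largest shift is that of *apoba*/*apobb.1*, from a mean of -5.45 to -5.01.

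Because the counting of reads that align to both copies is not stated, each pair was also summed as 1 gene. *apoa1a* and *apoa1b* together rose from 3026 ± 146 to 3645 ± 189 CPM (SD, n = 3), a log2 fold change of 0.27 (SE 0.06, adjusted p = 0.00923, edgeR). *apoba* and *apobb.1* together were at 4254 ± 285 and 3848 ± 247 CPM (SD, n = 3) and did not pass (log2 fold change -0.15, adjusted p = 0.171, edgeR). *apoea* and *apoeb* together were at 1086 ± 44.2 and 1094 ± 45.7 CPM (SD, n = 3), with a log2 fold change of 0.01 (adjusted p = 0.929, edgeR). The copies enter these sums by their reads. The *apoba* reads were 0.0213 to 0.0328 of those of *apobb.1* in each pool, so the apoB sum follows *apobb.1* and does not bear on *apoba*, and most reads of the apoA-I sum are those of *apoa1b*. Levels and ratios of single copies may depend on how shared reads were counted.

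The 10 genes held 0.972% ± 0.045 (SD, n = 3) of all counts in control pools and 1.01% ± 0.0347 (SD, n = 3) in EAE pools. The values were 0.940%, 1.02% and 0.952% in controls and 1.05%, 0.979% and 1.00% in EAE pools, which overlapped. Within this total the shares of *apoa1b* and *apobb.1* were read, without a test. *apoa1b* took 24.6%, 23.6% and 22.1% of the reads of the 10 genes in controls and 28.3%, 27.6% and 28.8% in EAE pools. *apobb.1* took 41.9%, 43.3% and 43.3% in controls and 37.8%, 37.0% and 35.7% in EAE pools. These are shares of reads, and a long transcript yields more reads per molecule. Shares of the 10 genes add up to a fixed total, so a larger share of *apoa1b* lowers those of the others.

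The profiles of the genes over the 6 pools were compared by the root-mean-square (RMS) difference of their centred log2 CPM. Of the 45 pairs among the 10 genes, *apobb.1* and *apoea* were the most alike (0.0329), followed by *apoa1a* and *apoc2* (0.0511). The least alike were *apoc1* and *apoea* (0.297) and *apoc1* and *apobb.1* (0.290). The profiles hold the difference between the groups, so the order of pairs in part restates the fold changes. On the log2 scale these were 0.39 for *apoc1*, -0.18 for *apoea* and -0.16 for *apobb.1*. The lowest pool of *apobb.1* and of *apoea* was EAE pool 2 and their highest was control pool 2. EAE pool 3 was the highest for 5 of the 10 genes and EAE pool 1 for 3. Among 7853 other tested genes with a mean of at least 20 CPM, those closest to the mean profile of the 10 were *lipf* (RMS difference 0.0109), *slc37a4a* (0.0118), *mpc1* (0.0142), *mep1a.1* (0.0146) and *tmem45b* (0.0163). *lipf* belongs to the gastric lipase family, *slc37a4a* to the glucose 6-phosphate transporters of the ER, *mpc1* to the mitochondrial pyruvate carrier and *mep1a.1* to the meprin proteases. The log2 fold changes of these 5 genes lay between 0.11 and 0.14. Each of the 10 apolipoprotein genes lay farther from the mean profile, from 0.0468 (*apoa2*) to 0.158 (*apoea*). Closeness to that mean is therefore not likeness to any single apolipoprotein gene. All 6 pools entered each comparison, and the points share their library sizes and normalization.

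Of the 10 genes, 4 lie in 1 cluster. RefSeq's annotation of assembly GRCz12tu, in which all 10 symbols were found, gives the order *apoa4b.1*, *apoa4b.3*, *apoa4b.2*, *apoeb*, *apoc1*, *apoc4*, *apoa2* and *apoc2*, with 2 further protein-coding genes between the *apoa4b* copies. It is not the build the authors aligned to, so no positions are given. Along the cluster the log2 fold changes were -0.10, -0.25 and -0.10 for the 3 *apoa4b* genes in that order, then 0.06 for *apoeb*, 0.39 for *apoc1*, 0.20 for *apoa2* and 0.10 for *apoc2*. Only *apoc1* and *apoa2* passed among them. *apoa4b.3*, at -0.25 (SE 0.08), was close to the threshold (adjusted p = 0.0519, edgeR). *apoc4*, with 4 to 13 counts per pool, was not tested. The flanking genes *gtpbp10* and *bcam* were at -0.18 (adjusted p = 0.149) and -0.08 (adjusted p = 0.488, edgeR). *apoea* is a neighbour of *apoa4a* (log2 fold change -0.07, adjusted p = 0.699). The neighbours of *apoba*, *zgc:194392* and *ldah*, were at -0.24 and -0.01 and did not pass (adjusted p = 0.0932 and 0.966, edgeR), unlike *apoba* itself. At 2 places from *apoea*, *apoa1a* and *apobb.1*, the genes *psmd4a*, *mpzl2b* and *pdia6* passed as higher. They were at 0.355, 0.192 and 0.423 (adjusted p = 0.0078, 0.042 and 0.00016, edgeR). Directly beside *apoa1a*, *pafah1b2* was at -0.196 and did not pass (adjusted p = 0.0579, edgeR). Directly beside *apobb.1*, *hpcal1* and *slc22a16* were at -0.114 and 0.00902 and did not pass (adjusted p = 0.573 and 0.972, edgeR). No other tested gene outside the 10 passed within 2 places of *apoea*, *apoa1a*, *apoba*, *apobb.1* or *apom*. The named neighbours were picked after their values had been seen, so they are no test of these regions.

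**Figure D5:**
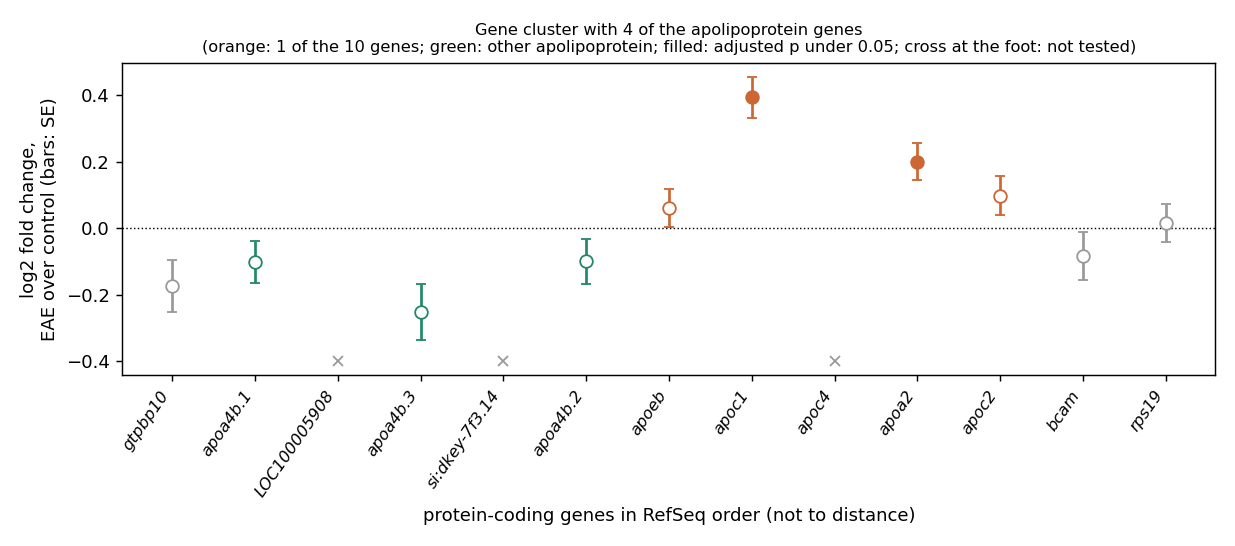
Log2 fold change of EAE over control larvae with its SE (y axis) for protein-coding genes in the order of RefSeq (x axis, order only); orange marks 4 of the 10 genes, green other apolipoprotein genes, and filled points passed an adjusted p of 0.05. The *apoa4b* genes lie between -0.25 and -0.10, and the 4 genes from *apoeb* to *apoc2* between 0.06 and 0.39.

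The remaining genes named as apolipoproteins included *apoa4*, *apod*, *apof* and *apol* genes, and also the mitochondrial *apoo* genes, which do not form lipoproteins. Of 13 that were tested, 0 passed as higher and 1 as lower (edgeR; 2 and 2 at an unadjusted p under 0.05; 0 and 0 with DESeq2, 1 and 1 with limma-voom), and the median log2 fold change was -0.07. This was 7.69% of the 13, beside 14.2% of all tested genes called. The gene that passed was *apof*, whose protein inhibits lipid transfer in mammals, with means of 23.5 ± 0.414 and 20.3 ± 1.05 CPM in the control and EAE groups (SD, n = 3). Its log2 fold change of -0.21 (adjusted p = 0.0465, edgeR) passed in 1 of the 6 fits with a pool left out, the one without EAE replicate 3, and missed the threshold with DESeq2 (adjusted p = 0.14). *apoa4b.1*, which enterocytes express during fat absorption, had means of 374 ± 29.4 and 348 ± 24.6 CPM (SD, n = 3; adjusted p = 0.303, edgeR).

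Genes that load and secrete lipoproteins had mostly higher means in EAE pools, and those called went in both directions. *mtp*, the transfer protein that lipidates apoB, had means of 101 ± 7.11 and 101 ± 7.60 CPM (SD, n = 3) and a log2 fold change of 0.001298 (SE 0.0616, adjusted p = 0.993, edgeR), beside 0.27 for *apoba* and -0.16 for *apobb.1*. *pla2g12b*, which zebrafish need for apoB particles to expand, did not pass either (0.03, adjusted p = 0.756). Of 39 tested genes for assembly and secretion 10 rose and 3 fell, with a median of 0.10. The means of 31 were higher and those of 8 lower. Called were 33.3%, beside 14.2% of all tested genes and 26.1% of those with 50 CPM or more. The 5 risen genes with the smallest p, *pdia4*, *pdia6*, *hspa5*, *hsp90b1* and *calr3b*, are general ER chaperones and folding enzymes (log2 fold changes 0.33 to 0.52). The other risen genes were *canx*, *p4hb*, *sec24c*, *tm6sf2* and *pdia3*, at 0.30, 0.21, 0.19, 0.75 and 0.15. Their adjusted p were 0.00562, 0.00831, 0.0175, 0.021 and 0.0481 (edgeR), and *tm6sf2* had 37 to 87 counts per pool. The count of risen genes was 7 to 11 with a pool left out. *sec23b*, of the coat that exports cargo from the ER, and *dgat2*, an enzyme of triglyceride synthesis, fell by 0.50 and by 0.26 on the log2 scale (adjusted p = 1.52e-05 and 0.0179). *acsl1a* also fell, by 0.19 on the log2 scale (adjusted p = 0.026, edgeR). *dgat2* did not pass without control replicate 2 (adjusted p = 0.11) or without EAE replicate 2 (0.0557). The number of fallen genes was then 1, *sec23b*.

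Lists of genes for lipoprotein handling in blood and at the cell surface were called at 10.5% (plasma), 14.7% (receptors) and 23.5% (efflux). Of all tested genes 14.2% were called, and of those with 50 CPM or more 26.1%. The efflux list also holds transporters that do not act on apolipoproteins. *lpl*, the lipase that apoC2 activates, had means of 473 ± 17.1 and 462 ± 29.8 CPM (SD, n = 3; adjusted p = 0.742), and *lcat*, which apoA-I activates, had a log2 fold change of 0.09 (adjusted p = 0.559). *cetp*, the transfer protein that apoC1 inhibits in mammals, was at 0.14 on the log2 scale (adjusted p = 0.22). Of 19 tested genes of plasma lipolysis and remodelling 2 rose, *lmf2b* and *pla2g7*, and 0 fell (0 also at an unadjusted p under 0.05 and with DESeq2 or limma-voom), with a median of 0.08. Neither gene passed without any 1 of the control replicates, EAE replicate 1 or EAE replicate 2. Among 34 receptor and uptake genes 2 rose and 3 fell, with a median of 0.03. The apoE receptor genes *vldlr* and *lrp8* and the related *lrp1ba* fell by 0.21, 0.31 and 0.23, while *apoea* and *apoeb* were at -0.18 and 0.06. In the same receptor family *ldlra* and *lrp1aa* were at -0.02 and 0.07 and did not pass (adjusted p = 0.838 and 0.423, edgeR). *vldlr* and *lrp8* did not pass without control replicate 1 (adjusted p = 0.0751 and 0.0566), and *vldlr* also failed to pass without control replicate 3 or EAE replicate 1. *lrp1ba* passed without control replicate 1 or EAE replicate 2 and missed the threshold in the other 4 fits with a pool left out (adjusted p = 0.062 to 0.139). *npc2* and *lsr* rose by 0.19 and 0.17. *npc2* did not pass without control replicate 1, control replicate 2 or EAE replicate 3 (adjusted p = 0.125, 0.0718 and 0.0881), and *lsr* passed only without EAE replicate 3 among the 6 fits and not with DESeq2 (adjusted p = 0.0976). The number of risen receptor genes was 0 without control replicate 1 or 2 and 1 without control replicate 3, EAE replicate 1 or EAE replicate 2. The number of fallen ones was 1 without control replicate 1, control replicate 3 or EAE replicate 1. *scarb1*, the receptor for high-density lipoproteins, did not pass (0.16, adjusted p = 0.153). Of 17 efflux genes 2 rose, *abca1b* and *abcb11a*, and 2 fell, *abca4a* and *abca4b*, with a median of 0.04. *abca1b*, which lipidates apoA-I, rose by 0.20 (134.1 ± 4.87 and 153.6 ± 6.73 CPM, SD, n = 3; adjusted p = 0.0162, edgeR), beside 0.34 for *apoa1b*. It did not pass without control replicate 3 (adjusted p = 0.0792) or EAE replicate 1 (0.0738), and its copy *abca1a* was at 0.07 (adjusted p = 0.461). The count of risen efflux genes was 0 without EAE replicate 1 and 1 without control replicate 1 or 3, and the count of fallen ones was 1 without EAE replicate 1 or any 1 of the control replicates.

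Among 45 tested genes for transcription factors of liver, intestine and lipid metabolism, 0 rose (4 at an unadjusted p under 0.05; 0 with DESeq2 and with limma-voom) and 5 fell, with a median log2 fold change of -0.01. Those called were 11.1% of this list, beside 14.2% of all tested genes. *hnf4a*, which activates apolipoprotein promoters in mammals, had means of 41.4 ± 4.89 and 40.7 ± 3.32 CPM (SD, n = 3) and did not pass (adjusted p = 0.894, edgeR). *cebpa*, a regulator of hepatocyte genes that is also active in myeloid cells, was at 68.0, 89.8 and 79.0 CPM in control pools and at 53.1, 48.5 and 53.25 CPM in EAE pools. All EAE pools were below all controls, and *cebpa* fell by 0.61 on the log2 scale (SE 0.08, adjusted p = 4.25e-05, edgeR), opposite to the 4 risen apolipoprotein genes. The others that fell were *thrb*, *rorca*, *rorab* and *prox1a*, by 0.42, 0.32, 0.22 and 0.22.

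Markers of the cells that make apolipoproteins were measured in the same pools. Of 42 tested hepatocyte markers 10 rose and 3 fell, and the median log2 fold change was 0.11, beside 0.14 for the 10 apolipoprotein genes. Those called were 31% of the list, beside 14.2% of all tested genes and 26.1% of those with 50 CPM or more. *fabp10a*, the liver fatty acid binding protein gene, was at 291.3, 324.6 and 309.2 CPM in control pools and at 389.9, 370.9 and 394.7 CPM in EAE pools. It rose by 0.32 (SE 0.05, adjusted p = 0.000712, edgeR), beside 0.34 for *apoa1b* and 0.39 for *apoc1*. *ttr*, *c3a.2* and *c3a.3*, genes for secreted plasma proteins, rose by 0.38, 0.29 and 0.27, while *pck1*, of gluconeogenesis, and *ahsg2* fell by 0.54 and 0.38. The count of risen hepatocyte markers was 5 without control replicate 1. Summed over the list, hepatocyte markers ranged from 8751 to 9798 CPM in controls and from 8826 to 10130 CPM in EAE pools. Their part in the rise of *apoa1b*, *apoa2*, *apoba* and *apoc1* was not tested.

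Of 34 enterocyte markers 0 rose (4 at an unadjusted p under 0.05; 0 with DESeq2 and with limma-voom) and 5 fell, with a median of -0.04 and summed levels of 6959 to 7495 CPM in controls and 6681 to 7514 CPM in EAE pools. Those called were 14.7% of the list, beside 14.2% of all tested genes and 26.1% of those with 50 CPM or more. The 5 were the peptidase genes *anpepa* and *anpepb* and the transporter genes *slc6a19a.1*, *slc5a1* and *slc10a2*, by 0.20 to 0.29. The count was 0 without control replicate 3, 1 without control replicate 2 or EAE replicate 2, and 3 without control replicate 1 or EAE replicate 3, and 2 markers passed as higher without EAE replicate 2. *fabp2*, of intestinal fatty acid binding, had a log2 fold change of -0.09 (adjusted p = 0.257, edgeR). *apobb.1* and *apoea*, the 2 apolipoprotein genes with lower means, were at -0.16 and -0.18, and the part of intestinal cells in their values was not tested.

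Of 32 tested macrophage and microglia markers 12 rose, 20 did not pass and 0 fell (0 also at an unadjusted p under 0.05 and with DESeq2 or limma-voom), with a median of 0.28. Those called were 37.5% of the list, beside 14.2% of all tested genes. The summed level of the list was 623.6 to 678.1 CPM in controls and 748.2 to 824.8 CPM in EAE pools, without overlap. *mpeg1.1*, a defining macrophage gene, rose by 0.33 (adjusted p = 0.00126) and *irf8* by 0.58. *apoeb* and *apoc1*, which macrophages can also express, were at 0.06 and 0.39, and the part of macrophages in the rise of *apoc1* was not tested.

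Of 16 yolk syncytial layer markers 3 rose, among them the cathepsin gene *ctsba*, and 0 fell (1 at an unadjusted p under 0.05; 0 with DESeq2 and with limma-voom), with a median of 0.03 and summed levels of 1128 to 1154 CPM in controls and 1211 to 1297 CPM in EAE pools. *ctsba* is also expressed in other tissues, and the count was 1 without control replicate 3. In the remaining lists the calls were 2 higher of 19 for pronephros (0 without EAE replicate 1, 1 without any other single pool but control replicate 1), 4 lower of 23 for glia (2 without control replicate 1), 2 lower of 20 for exocrine pancreas (1 without control replicate 2 or EAE replicate 2), and 9 higher and 5 lower of 21 for skin (2 lower without control replicate 2, 3 without any other single pool but EAE replicate 1). Called in either direction were 18.8% of the yolk syncytial list, 10.5% for pronephros, 17.4% for glia, 10% for exocrine pancreas and 66.7% for skin. Of all tested genes 14.2% were called. The part of these cell types in the values of the 10 genes was not tested.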

How the data were processed

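Single-end reads of poly-A selected RNA from whole-larva pools were aligned by the authors to GRCz10 with STAR, and the deposited values are whole-number counts per gene symbol and pool, without normalization. The counting program, its annotation and whether strand was used are not given in the sources used here. The deposited counts are labelled primary, but the treatment of multi-mapping reads is not described, so close paralogs may share reads. The row with no gene name (1.49% to 1.57% of counts per pool) was left out of totals and tests.

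Counts were analysed with edgeR 4.0.16 in R 4.3.3. Genes passing filterByExpr were normalized by TMM (factors 0.986 to 1.02) and EAE was compared with control by the quasi-likelihood F test, with Benjamini-Hochberg adjustment over 21617 genes and a threshold of 0.05. The SE of a log2 fold change is its absolute value divided by the root of F, and 95% intervals use the test's degrees of freedom. The median SE was 0.0955 over all tested genes and 0.0615 over the 10 apolipoprotein genes. Profiles used log2 CPM with a prior count of 2.

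The study's methods state DESeq2's Wald test, which was run as an alternative (DESeq2 1.42.0), with limma-voom (limma 3.58.1), RLE size factors, library totals, no filter, a required 1.5-fold change, a replicate block, and each pool left out. The scripts were tested on simulated counts. Levels per coding length and promoter motifs, both planned, were not done because no sequences or transcript lengths were used here.

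The 10 genes and all lists were chosen with earlier results of these data known. Named are the 10 genes, fixed pathway genes and markers, and per list up to 6 genes past the threshold by smallest p, with the 5 genes most like the mean profile. For assembly all 10 risen and all 3 fallen genes are named. Lists cover other apolipoproteins, assembly, lipolysis, receptors, efflux, regulators and markers of 8 cell types. Of the listed symbols, 4 were found under an older name through RefSeq synonyms (*mttp* as *mtp*, for example). Values of some single genes of these lists are not reported here.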

Additional observations from a re-analysis of the deposited data

How the results depend on the processing

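With 3 pools against 3 an exact permutation test of 1 gene or ratio cannot go below p = 0.1, so single genes rest on edgeR's shared spread. Over 13 alternatives for each of the 10 genes, 113 of 130 results kept their direction or stayed without a call on the same side of the threshold, 11 lost the call, 6 gained one, and 0 of the called values changed sign. DESeq2 and limma-voom called the same number of the 10 genes as higher, 4, and DESeq2 called 1846 genes in all, against 3063 in the main test. With library totals alone and with no filter on low counts, 1 of the 10 passed as lower (*apoea*, adjusted p = 0.0341 and 0.0263 from edgeR). With no filter *apom* also passed as higher (adjusted p = 0.0325), making 5 higher. When a 1.5-fold change was required of each gene, 0 of the 10 passed and 61 of all genes did. With each pool left out in turn, 2 to 5 of the 10 passed as higher, 0 to 1 as lower, and 1641 to 2996 of all genes differed. Deviations of same-numbered pools had correlations of -0.0934 to -0.00858, and those of pools with different numbers -0.033 to 0.0675. Values this small cannot settle whether the replicate numbers pair the pools. With a replicate block, 3 of the 10 passed as higher (*apoa2* was lost, adjusted p = 0.0802 from edgeR), 0 as lower, and 2336 of all genes differed. The log2 ratios of gene pairs ranged, with a pool left out, from -0.35 to -0.20 (*apoa1a*/*apoa1b*), 0.38 to 0.50 (*apoba*/*apobb.1*), -0.31 to -0.19 (*apoea*/*apoeb*), 0.25 to 0.33 (*apoc1*/*apoc2*) and -0.17 to -0.08 (*apoa2*/*apoa1b*).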
